A study of Sus scrofa with 12 samples.

Results

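The genes described here are the DNA replication and homologous repair genes of the sow endometrium. A gene was taken as a member when its annotation in the deposited table named at least 1 of the 3 KEGG pathways DNA replication, homologous recombination and Fanconi anemia. This gave 101 of 20674 genes, with 35 in DNA replication, 40 in homologous recombination and 48 in Fanconi anemia, and with 16 genes in 2 of these pathways and 3 in all. The rule used the annotation and no measured value.

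RNA was sequenced from endometrium of sows fed for 114 days from the day of breeding, in 12 libraries of 4 diet groups with 3 libraries each. L − N received a low-fiber diet with 3.73% crude fiber, and L + N the same diet with 0.05% N-carbamylglutamate (NCG), an activator of arginine synthesis. H − N received a high-fiber diet with 7.46% crude fiber, and H + N this diet with 0.05% NCG. The paper names Landrace × Yorkshire sows and took the tissue after a feeding period that spanned gestation. The labels give neither breed nor age and do not tie the libraries to named animals, so the p-values measure the spread between these libraries, which may be technical in part.

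Before a cell divides, the MCM helicase opens the DNA, primase and the replicative polymerases copy it, and the PCNA clamp with its loader holds the polymerases in place. Homologous recombination repairs broken DNA from the sister copy, with BRCA1 and BRCA2 at its center. The Fanconi anemia proteins recognize crosslinked strands at stalled forks and hand them to nucleases, translesion polymerases and recombination. In the endometrium these genes are known to be most active in dividing cells.

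Total counts ranged from 14369781 to 19309724 per library, and 15351 genes had enough counts to be tested. Of the members, 99 were tested. SEM1, with 36 counts over all libraries, and RNASEH2C, with 0 counts and an overlap with KAT5, were not. The epithelial and stromal markers checked against the tissue label, 8 and 8 genes, were all detected. In bulk tissue, fewer cells of a type and less RNA per cell cannot be told apart. RAB3A, a GTPase of vesicle traffic, is a member by the deposited annotation alone and has no role below (log2 fold change of NCG -0.02, SE 0.185). Members overlapping another gene numbered 34, among them 10 of the 20 that rose with NCG below. Overlap was taken from the start to the end of each gene, introns included, and overlap of exons was not examined. As the strand setting of the counting is not given in the sources used here, reads from exon bases shared by such a pair cannot be told apart.

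NCG went with higher expression of a subset of the members. The comparison sets both groups fed NCG against both groups without it, with equal weight on each diet. Of the 99 members tested, 20 were higher at an adjusted p under 0.05 and 0 were lower, where 5.67% of all genes tested were higher and 1.6% lower. DESeq2 passed 29 members as higher and 2 as lower, against 8.3% and 4.67% of the genes it tested. With the additional threshold of an absolute log2 fold change above 1, 9 members were differentially expressed, against 1.67% of all genes in that direction. They were FANCM, RAD54B, DNA2, BRIP1, BLM, RAD50, POLE2, ATR and FANCA. The median log2 fold change was 0.29 for the members and -0.03 for all genes, and 47 members against 23.6% of all genes had an unadjusted p under 0.05. By pathway, 3 of 34 tested members of DNA replication rose, 8 of 39 of homologous recombination and 13 of 48 of Fanconi anemia. The count of 20 depended on which libraries entered the fit. Leaving out 1 library at a time, it fell to 12 without L + N 2, 13 without L − N 3, 13 without H − N 1 and rose to 26 without L − N 2, and the differentially expressed members were then 4, 5, 4 and 12. Genes of the whole table that passed in either direction numbered 519, 586, 678 and 942 in these fits, against 1116 with all libraries.

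**Figure D1:**
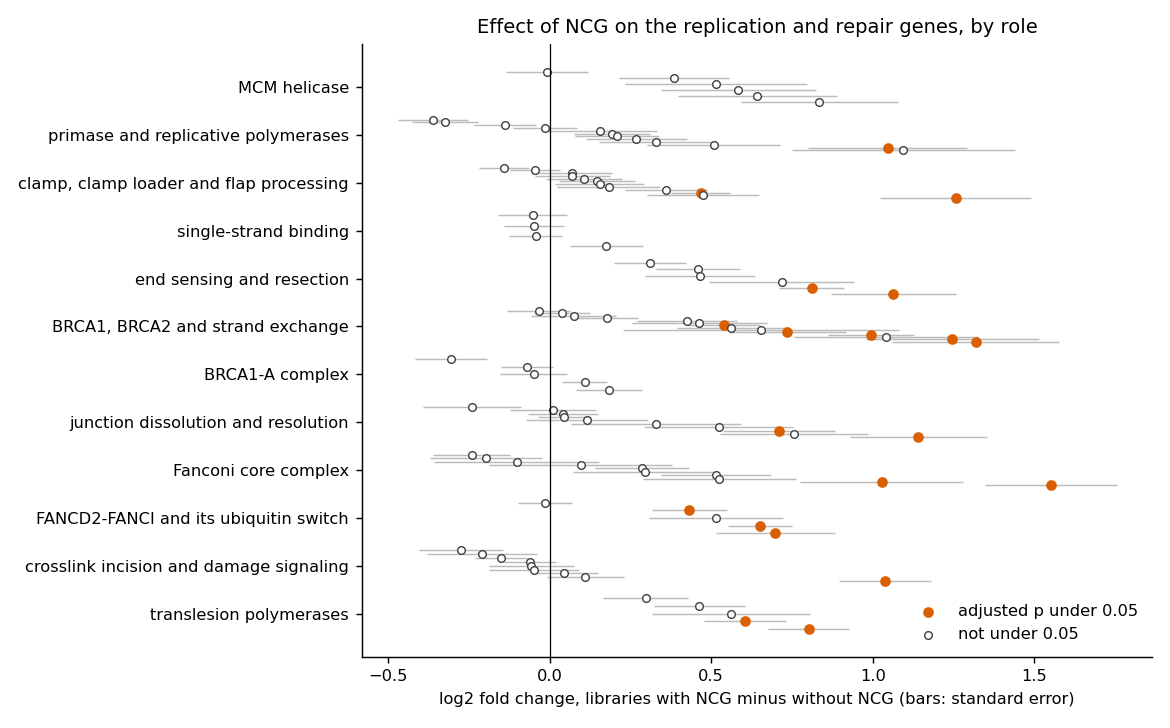
Log2 fold change of the libraries with NCG against those without (x axis, with standard errors) for 98 tested members, grouped by role (y axis). Filled points mark the 20 members with an adjusted p under 0.05, all at positive values, and they lie mostly in the repair roles, while the 6 MCM genes and the 4 single-strand binding genes have open points only.

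The kinases that sense broken and stalled DNA were among the members whose libraries separated by NCG. ATM, which signals double-strand breaks (chromosome 9, 36620656 to 36759555), measured 42.0, 45.2 and 43.2 CPM (counts scaled to library size with TMM factors) in L − N and 42.6, 61.3 and 62.2 in H − N. It measured 94.5, 102 and 84.4 CPM in L + N and 76.8, 78.2 and 82.4 in H + N. Each library with NCG was above each library without it. The log2 fold change of NCG was 0.81 (SE 0.1004, edgeR quasi-likelihood test, adjusted p = 0.00578).

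ATR, the kinase of stalled forks (chromosome 13, 83175515 to 83289986), measured 16.7, 18.6 and 14.2 CPM in L − N, 34.7, 50.6 and 48.6 in L + N, 17.1, 28.0 and 26.3 in H − N, and 39.5, 36.0 and 35.7 in H + N. The libraries with and without NCG again did not overlap, and ATR rose by 1.04 on the log2 scale (SE 0.143, adjusted p = 0.00578). Its partner ATRIP and the other 7 members listed with it for crosslink incision and damage signaling did not pass, and that role had a median of -0.06. RAD50, the coiled-coil subunit of the MRE11 complex at broken ends, rose by 1.06 (SE 0.193, adjusted p = 0.0113), with 15.5 to 30.8 CPM in the 6 libraries without NCG and 38.7 to 71.8 in the 6 with it. MRE11, the nuclease of that complex, had a log2 fold change of 0.31 (SE 0.111, adjusted p = 0.12) and did not pass. RAD50 overlaps SLC22A5, IL5 and KIF3A.

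Among 14 genes that act with BRCA1 and BRCA2 in strand exchange, 5 rose and the median was 0.55. BRCA1, the tumor suppressor that promotes recombination (chromosome 12, 19788087 to 19854515), measured 11.14, 14.7 and 10.8 CPM in L − N and 16.8, 21.4 and 21.8 in H − N. With NCG it measured 26.5, 35.5 and 37.9 CPM in L + N and 25.2, 29.7 and 32.2 in H + N. No library with NCG was as low as the highest library without. BRCA1 rose by 0.99 (SE 0.133, adjusted p = 0.00578), just under the fold threshold, and it overlaps NBR1 on the other strand.

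BRIP1, the helicase that binds BRCA1, rose by 1.25 (SE 0.268, adjusted p = 0.0194), with 1.53 to 5.14 CPM without NCG and 6.13 to 8.38 with it. RAD54B, a motor protein that assists strand exchange, rose by 1.32 (SE 0.258, adjusted p = 0.014), from 0.806 to 2.38 CPM without NCG to 3.31 to 4.66 with it, and overlaps FSBP on its own strand. BRCA2, a tumor suppressor needed for strand exchange, rose by 0.54 (SE 0.113, adjusted p = 0.0179) and its libraries did not overlap. BARD1, the partner of BRCA1, rose by 0.73 (SE 0.181, adjusted p = 0.0337), but its libraries with NCG (11.8 to 23.5 CPM) overlapped those without (5.71 to 15.1 CPM). XRCC2, which also acts in strand exchange, missed the threshold at an adjusted p of 0.0500 with a log2 fold change of 1.04. The 5 tested members of the BRCA1-A complex, which keeps BRCA1 at ubiquitin marks, had 0 past the test in edgeR and DESeq2, 1 at an unadjusted p under 0.05 and a median of -0.05. The values of 12 genes in every library are plotted next.

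**Figure D2:**
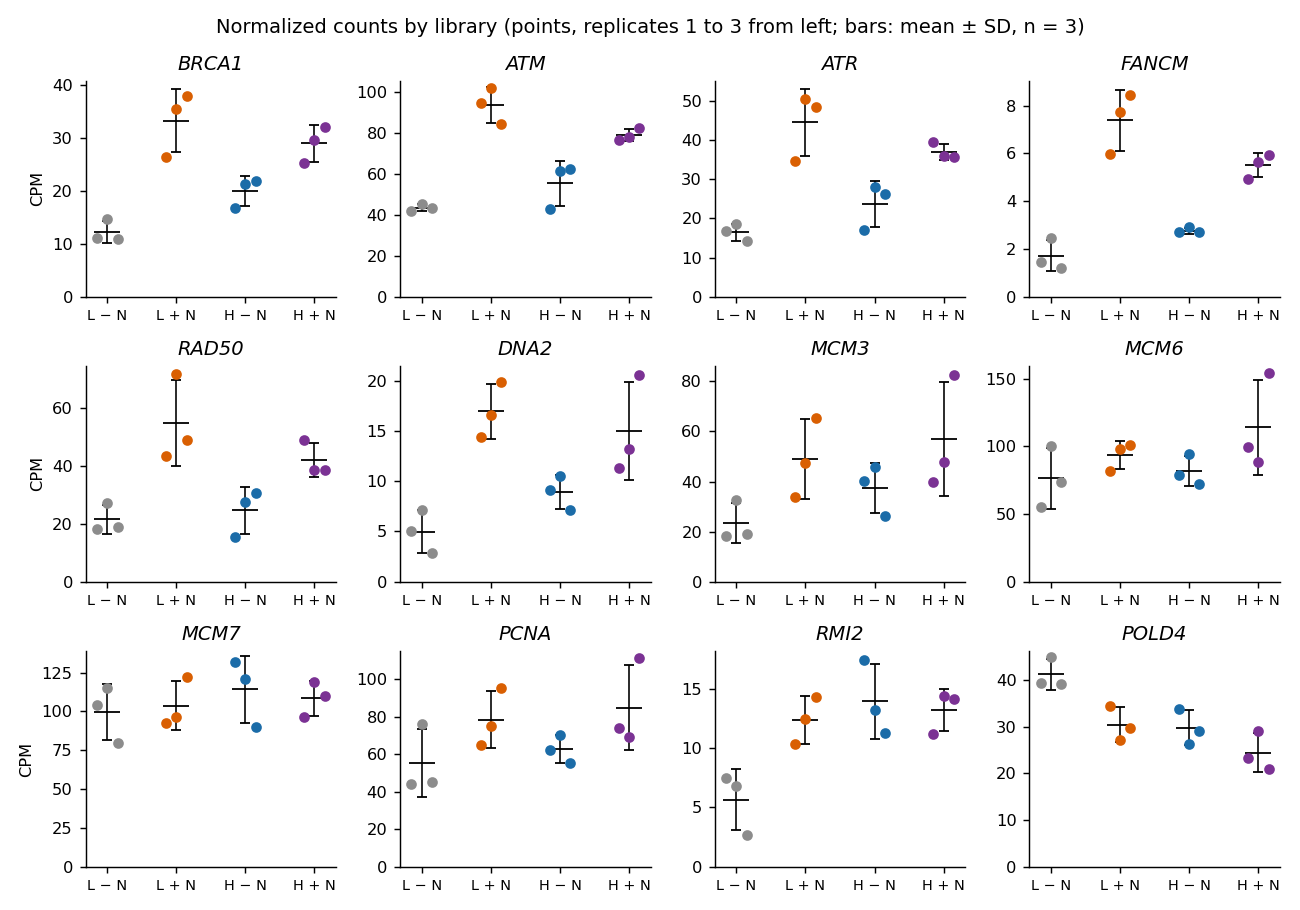
CPM (y axis, from 0) of 12 members in the 4 groups (x axis), with each library as a point and bars for mean ± SD (n = 3). ATM, ATR, BRCA1, FANCM and DNA2 have all 6 libraries with NCG above all 6 without, while MCM3, MCM6 and PCNA overlap between groups and have their highest point in H + N 3, and MCM7 overlaps throughout.

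In the Fanconi anemia pathway, FANCM had the largest log2 fold change of NCG of all members tested. FANCM is a DNA-moving enzyme that anchors the core complex at crosslinks (chromosome 1, 175333965 to 175402065). It measured 1.46, 2.45 and 1.21 CPM in L − N, 5.97, 7.74 and 8.44 in L + N, 2.69, 2.91 and 2.69 in H − N, and 4.94, 5.65 and 5.95 in H + N. The lowest library with NCG was above the highest library without, and FANCM rose by 1.55 (SE 0.204, adjusted p = 0.00578). Its level was low for its length, with a median of 0.502 FPKM, the lowest of the tested members.

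FANCA, a scaffold of the core complex, rose by 1.03 (SE 0.251, adjusted p = 0.0333), with 2.36 to 4.62 CPM without NCG and 4.94 to 11.2 with it, and overlaps ZNF276. The other 8 tested core members did not pass. In the FANCD2 and FANCI step, where the pair is marked with ubiquitin and later cleared by USP1, 3 of 5 members rose. USP1 rose by 0.65 (SE 0.0998, adjusted p = 0.00629), FANCD2 by 0.70 (SE 0.184, adjusted p = 0.0434) and FANCI by 0.43 (SE 0.116, adjusted p = 0.0475). The libraries of USP1 did not overlap, those of FANCD2 and FANCI did. WDR48, the partner of USP1, measured -0.02 (SE 0.0844, adjusted p = 0.931). All 4 overlap a neighboring gene. Of 5 translesion polymerases, REV3L, the catalytic subunit of polymerase zeta, rose by 0.80 (SE 0.126, adjusted p = 0.00708) and POLK by 0.60 (SE 0.127, adjusted p = 0.018), with no overlap between libraries in either.

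Among the 10 genes that take apart joined DNA molecules, BLM, the Bloom helicase, rose by 1.14 (SE 0.212, adjusted p = 0.0115), with 3.16 to 9.64 CPM without NCG and 10.1 to 16.9 with it. RMI1, its partner in dissolving junctions, rose by 0.71 (SE 0.172, adjusted p = 0.0328), again without overlap. DNA2, a nuclease of flaps and broken ends (chromosome 14, 71550405 to 71607067), rose by 1.26 (SE 0.232, adjusted p = 0.0115), with 2.82 to 10.5 CPM without NCG and 11.3 to 20.5 with it. It is 1 of 2 members, with RFC1, the largest subunit of the clamp loader (log2 fold change 0.47, SE 0.0905, adjusted p = 0.0134), that rose among 12 genes of clamp, loader and flap processing.

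Over all members, 19 had all 6 libraries with NCG above all 6 without, against 3.22% of all genes tested. The reverse held for 0 members and 0.769% of all genes. Of the 20 that rose, 17 were among these 19, and the exceptions were FANCI, FANCD2 and BARD1. RAD54L and POLH were separated in this way without passing.

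The libraries of the MCM helicase were ordered by more than NCG. The 6 MCM genes had a median log2 fold change of 0.55, and 0 of 6 passed in edgeR, with 4 at an unadjusted p under 0.05 and 1 past DESeq2. MCM3 measured 18.4, 32.6 and 19.1 CPM in L − N, 33.9, 47.6 and 65.5 in L + N, 40.3, 45.6 and 26.4 in H − N, and 39.8, 47.9 and 82.7 in H + N. The groups overlapped, with L − N 1, L − N 3 and H − N 3 lowest and H + N 3 highest, and the log2 fold change was 0.83 (SE 0.243, adjusted p = 0.0626). MCM2 gave 0.58 (SE 0.241, adjusted p = 0.17), MCM4 0.64 (SE 0.246, adjusted p = 0.141), MCM5 0.51 (SE 0.281, adjusted p = 0.297) and MCM6 0.38 (SE 0.169, adjusted p = 0.198).

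MCM7 was the exception, with 104, 115 and 79.8 CPM in L − N, 92.9, 96.5 and 122 in L + N, 132, 121 and 90.1 in H − N, and 96.2, 119 and 110 in H + N. Its log2 fold change was -0.01 (SE 0.127, adjusted p = 0.975), and it overlaps AP4M1 on the other strand. Per length MCM7 and MCM6 were the highest of the helicase, with median levels of 31.4 and 28.8 FPKM, and MCM2 and MCM5 the lowest with 8.62 and 8.59. PCNA, the sliding clamp, had the highest median level of the members, 61.7 FPKM, and a log2 fold change of 0.47 (SE 0.173, adjusted p = 0.125).

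Of 12 genes of primase and the replicative polymerases, POLE2, the second subunit of polymerase epsilon, rose by 1.05 (SE 0.246, adjusted p = 0.0281). Its libraries measured 1.78 to 5.08 CPM without NCG and 5.41 to 10.2 with it. POLE, the catalytic subunit, had a similar log2 fold change of 1.09 with a larger error (SE 0.345, adjusted p = 0.0818), and its libraries overlapped, with 4.30 to 16.6 CPM without NCG and 14.7 to 37.9 with it. The 4 single-strand binding genes had a median of -0.05, with 0 past the test in edgeR and DESeq2 and 0 at an unadjusted p under 0.05.

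At the low end of the members, fitted values below 0 were small. POLD4 had -0.36 (SE 0.110, adjusted p = 0.0726) and POLE4 -0.32 (SE 0.103, adjusted p = 0.0847), both small accessory subunits of replicative polymerases. None of the members passed as lower in edgeR, while DESeq2 passed 2 as lower, both of the role of primase and replicative polymerases. BABAM2, a scaffold of the BRCA1-A complex, measured 45.0 to 68.7 CPM without NCG and 42.6 to 61.1 with it, a log2 fold change of -0.31 (SE 0.110, adjusted p = 0.122). TELO2, which stabilizes ATM and ATR kinases, had -0.27 (SE 0.129, adjusted p = 0.227), FANCF, an adaptor of the Fanconi core, -0.24 (SE 0.119, adjusted p = 0.248) and SLX1A, a structure-specific nuclease, -0.24 (SE 0.152, adjusted p = 0.367). These last 3 overlap a neighboring gene.

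**Figure D3:**
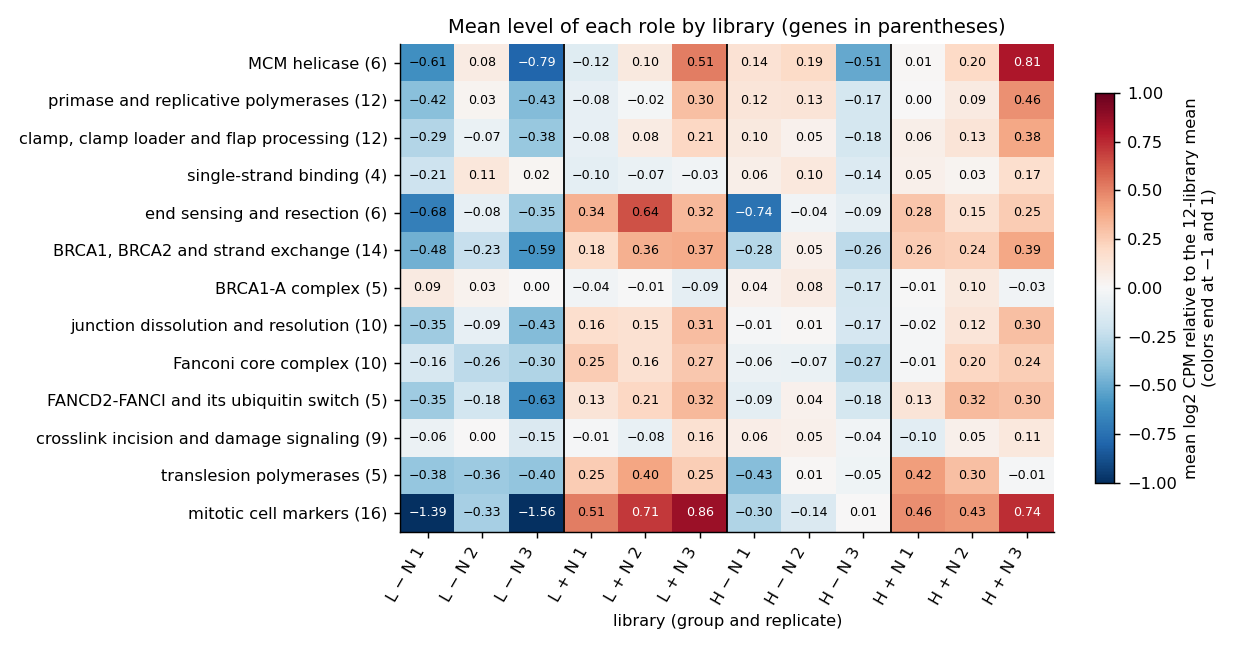
Mean log2 CPM of each role (rows, number of tested genes in parentheses) in each library (columns) relative to its mean over 12 libraries, with mitotic cell markers in the last row. The MCM row is at -0.61, 0.08 and -0.79 in L − N and at -0.51 in H − N 3, while the row of BRCA1, BRCA2 and strand exchange is above 0 in all 6 libraries with NCG.

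The libraries also differed within groups. L − N 3 was the lowest library for 35 of 99 members and L − N 1 for 20, and H + N 3 was the highest for 35. No such count over all genes stands beside these, so they cannot be read as particular to the members. The mean of all members relative to the 12-library mean was -0.33, -0.09 and -0.39 on the log2 scale in L − N and 0.08, 0.15 and 0.30 in H + N. Mitotic cell markers, a list chosen with earlier results of these data known, moved with the members. All 16 of 16 rose with NCG (median log2 fold change 1.12), where 5.67% of all genes rose. Their summed level was 122 to 293 CPM in L − N, 312 to 396 in H − N, 534 to 703 in L + N and 503 to 647 in H + N. Their part in the members' values was not tested. Of 46 tested replication genes outside the 3 pathways, 18 rose and 0 fell (median 0.61), among them CHEK2, a checkpoint kinase (log2 fold change 0.58, adjusted p = 0.00715), and ORC4, of the origin recognition complex (0.79, adjusted p = 0.00836). In the cell cycle pathway without the members, 21 of 109 rose and 1 fell. In repair pathways without members, 1 of 9 genes of non-homologous end joining rose, 2 of 4 of mismatch repair, 1 of 23 of nucleotide excision repair and 1 of 22 of base excision repair. Of the cell type lists, epithelium, ciliated epithelium, stroma, smooth muscle, macrophages, T and NK cells, B and plasma cells, neutrophils and trophoblast had 0 markers past edgeR and DESeq2 for NCG, and PECAM1 of the endothelium fell. DESeq2 passed 2 of 6 endothelial markers, both lower, and 3 had an unadjusted p under 0.05 in edgeR. All 5 smooth muscle markers had fitted values below 0 (median -0.84), 4 of them at an unadjusted p under 0.05, and their sum was 1025 to 3793 CPM in L − N, 727 to 908 in L + N, 562 to 1170 in H − N and 989 to 1102 in H + N. Each of the 5 was highest in the single library L − N 1, where ACTA2 measured 1918 CPM, against 578 and 672 in L − N 2 and L − N 3. At an unadjusted p under 0.05 were also 1 of 8 epithelial and 1 of 6 macrophage markers and 0 of the other 6 of these lists. The trophoblast marker CYP19A1 was at 0 in all libraries.

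H + N against L − N compares the combined diet with the basal diet. Of 99 members, 16 rose and 1 fell, where 4.31% of all genes were higher and 3.66% lower, and 10 were differentially expressed, all higher, where 2.29% of all genes were in that direction. The members' median was 0.39, against 0.02 for all genes, and 45 members against 27.5% of all genes had an unadjusted p under 0.05. The largest significant changes were FANCM at 1.69 (SE 0.292, adjusted p = 0.0159), DNA2 at 1.59 (SE 0.333, adjusted p = 0.0239), BLM at 1.45 (SE 0.303, adjusted p = 0.0235) and POLE2 at 1.45 (SE 0.353, adjusted p = 0.034). BRCA1 rose by 1.25 (SE 0.189, adjusted p = 0.0136), BARD1 by 1.34 (SE 0.259, adjusted p = 0.0201) and ATR by 1.17 (SE 0.204, adjusted p = 0.0161). MCM3 was the only MCM gene that passed, at 1.28 (SE 0.347, adjusted p = 0.0466). RAD54B and RMI2 completed the 10, at 1.35 and 1.22.

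POLD4, the smallest subunit of polymerase delta, was the member that fell. It measured 39.5, 45.0 and 39.2 CPM in L − N and 23.4, 29.1 and 21.0 in H + N, without overlap, and decreased by 0.75 (SE 0.156, adjusted p = 0.0232). At the same threshold 2 of 6 macrophage markers, 1 of 8 stromal and 1 of 6 endothelial markers fell and 1 of 4 trophoblast markers rose, while 14 of 16 mitotic markers rose. The summed macrophage markers were 981 to 2623 CPM in L − N and 815 to 1027 in H + N. Their part in the members' values was not tested. Several counts here rested on single libraries. The members that rose numbered 0 without L − N 3, 0 without H + N 1 and 4 without H + N 3, and with only the libraries of H + N and L − N fitted 5 rose. Over the whole table the genes that passed in either direction numbered 4, 1, 328 and 111 in these fits, against 1223 with all libraries.

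The effect of NCG on each diet used separate libraries. In L + N against L − N, 19 members rose and 1 fell, where 5.97% of all genes were higher and 3.63% lower, and 12 were differentially expressed, all higher, where 3.32% of all genes were in that direction. The median was 0.33, against -0.02 for all genes, and 42 members against 27.8% of all genes had an unadjusted p under 0.05. FANCM rose by 2.11 (SE 0.294, adjusted p = 0.00818), DNA2 by 1.76 (SE 0.334, adjusted p = 0.0126), BRCA1 by 1.45 (SE 0.190, adjusted p = 0.00818), ATR by 1.44 (SE 0.205, adjusted p = 0.00818) and ATM by 1.11 (SE 0.143, adjusted p = 0.00818). POLE4, a histone-fold subunit of polymerase epsilon, decreased by 0.52 (SE 0.146, adjusted p = 0.0483), with 44.4, 51.8 and 51.4 CPM in L − N and 31.2, 30.7 and 41.3 in L + N. APITD1, a histone-fold partner of FANCM, rose by 0.75 (SE 0.209, adjusted p = 0.0454). The members that rose numbered 5 without L − N 3, 7 without L + N 2, 9 without L + N 3 and 12 without L + N 1, and genes of the whole table that passed were 207, 247, 606 and 647, against 1474. Mitotic markers rose in 16 of 16 (median log2 fold change 1.54), and 2 of 6 endothelial, 1 of 8 stromal, 1 of 6 macrophage and 1 of 5 smooth muscle markers fell. All 5 smooth muscle markers had an unadjusted p under 0.05, with a median of -1.65 and the highest value of each in L − N 1. The macrophage markers had a median of -0.97. The part of these markers in the members' values was not tested.

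In H + N against H − N, 0 members passed in edgeR and in DESeq2, where 0 and 45 genes of the whole table passed. At an unadjusted p under 0.05 were 21 members, against 8.67% of all genes. The median was 0.20, against 0.01 for all genes. BRIP1 gave 1.16 (SE 0.379, adjusted p = 0.474), FANCM 0.99 (SE 0.284, adjusted p = 0.451), ATR 0.64 (SE 0.201, adjusted p = 0.474) and BRCA1 0.54 (SE 0.186, adjusted p = 0.477). Without overlap, all 3 libraries of H + N were above all 3 of H − N for 27 members, where 7.82% of all genes were so placed, and the same held for 40 members in L + N against L − N, where 18% were. All 3 libraries of H + N were above all 3 of L − N for 42 members, where 15.2% of all genes were.

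**Figure D4:**
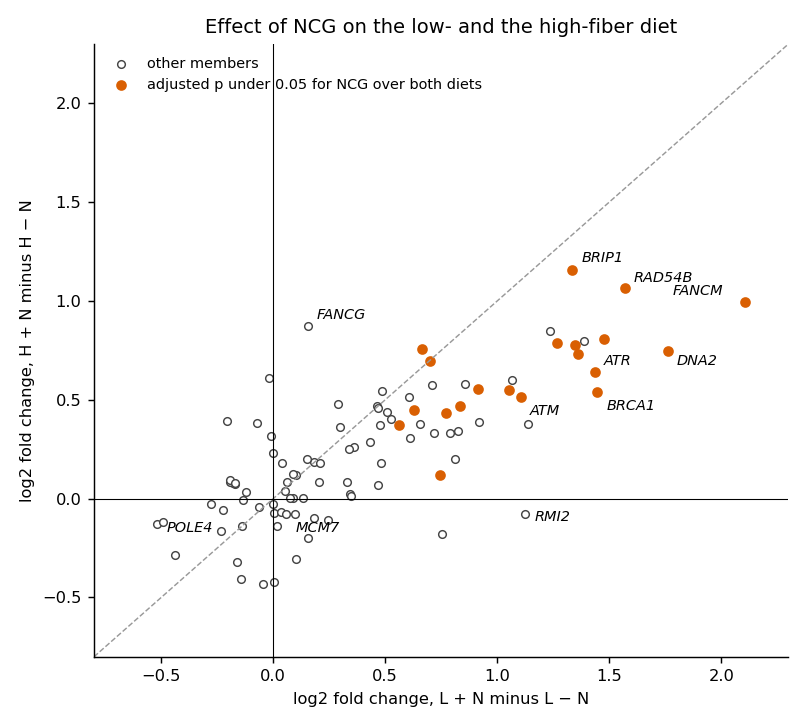
Log2 fold change of NCG on the low-fiber diet (x axis) against the high-fiber diet (y axis) for 99 members, with filled points for the 20 that passed for NCG over both diets and a dashed line of equal change. Among the filled points, 19 lie below the dashed line and all have positive values on both axes, while MCM7 lies close to 0 on both.

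Fitted values were higher with NCG on both diets for 64 members, lower on both for 13 and of opposite sign for 22. On the low-fiber diet 76 of 99 members and 7328 of 15351 genes were above 0. On the high-fiber diet these were 74 members and 7830 genes. Of the 20 members that rose with NCG, 19 had the larger fitted value on the low-fiber diet, and FANCM, BRCA1 and ATR differed by -1.11, -0.91 and -0.80 (high-fiber minus low-fiber). The 20 were picked with these same libraries, and 18 of them also passed in L + N against L − N. The count of 19 is therefore no test of a difference between diets. Over all members this difference was above 0 for 31 of 99, and over all genes for 7581 of 15351. The interaction itself passed for 0 members in edgeR and in DESeq2, where 0 and 287 genes of the whole table passed. At an unadjusted p under 0.05 were 8 members against 12.8% of all genes, and the smallest adjusted p of a member was 0.263, for BRCA1. Without L − N 1, edgeR passed 437 genes of the whole table for the interaction, and 0 members.

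Among the members, dietary fiber had few calls. For DF, the mean of both high-fiber groups against both low-fiber groups, 0 members passed in edgeR, where 0.00651% of all genes were higher and 0.0456% lower, with 7 at an unadjusted p under 0.05 against 19.5% of all genes. This depended on L − N 1. In edgeR without that library 1 member rose and 1088 genes of the whole table passed, against 8 genes with all libraries. DESeq2 passed 4 members as higher and 1 as lower, none of them over the fold threshold, against 2.43% and 4.52% of the genes it tested. RMI2, a small subunit of the junction complex, had the largest of the 7 (0.70, SE 0.231, adjusted p = 0.144). Fitted values of DF were above 0 for 73 of 99 members, as many as for NCG, and for 8242 of 15351 genes. The members' median for DF was 0.10, against 0.02 for all genes. In H − N against L − N, 2 members rose and 0 fell, where 1.56% of all genes were higher and 3.71% lower, and 15 members had an unadjusted p under 0.05, against 24.4% of all genes. FANCI rose by 0.70 (SE 0.166, adjusted p = 0.0387), with 22.7, 17.9 and 14.7 CPM in L − N and 31.6, 28.7 and 29.2 in H − N. RMI2 rose by 1.30 (SE 0.332, adjusted p = 0.0474), with 7.51, 6.77 and 2.69 CPM in L − N and 17.4, 13.2 and 11.2 in H − N, and neither overlapped between groups. RMI2 was the 1 member differentially expressed, against 0.892% of all genes in the higher direction. Fitted values of H − N against L − N were above 0 for 76 of 99 members and 8209 of 15351 genes. The members' median was 0.17, against 0.03 for all genes. This comparison shares its L − N libraries with the comparisons above. Leaving out any 1 of 9 libraries ended both calls, while FANCI alone still passed without H + N 2 or H + N 3, and both passed without L − N 1. Of the markers, 5 of 6 for macrophages fell (median log2 fold change -1.64, summed level 498 to 743 CPM in H − N), 2 of 8 stromal markers fell, 1 of 8 epithelial and 1 of 4 trophoblast markers rose, and 2 of 16 mitotic markers rose (median 0.79, 12 at an unadjusted p under 0.05). Their part was not tested. H + N against L + N had 0 members past the test in edgeR and DESeq2, where 0 and 2 genes of the whole table passed. At an unadjusted p under 0.05 were 2 members, against 4.68% of all genes. The members' median in H + N against L + N was 0.05, against 0.01 for all genes.

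The genes that rose with NCG were long, a property the rule did not use. The gene length in the deposited table had a median of 6087.5 bp for the 20 members that rose, from 1776 bp for POLE2 to 13333 bp for ATM, and 3114 bp for the 79 that did not pass. All tested genes had a median of 3730 bp and all genes that rose with NCG one of 6497 bp. Of the 20 members, 17 were longer than 4000 bp, and of all genes above this length 9.55% rose. Over all genes the median log2 fold change of NCG went from -0.18 up to 1000 bp to 0.13 above 8000 bp, while for DF it went from 0.07 to -0.00. A further fit took as offset a smooth trend of log2 CPM deviations on gene length, estimated in each library from these same data. There, 19 members rose with NCG, 17 of them in both fits, against 4.35% of all genes. FANCD2, FANCI and BRCA2 no longer passed, and RFC4 and XRCC2 were added. In L + N against L − N the members that rose numbered 13 in that fit, against 19 in the main fit, where 4.92% of all genes were higher with the offset. BARD1, BRCA2, BRIP1, FANCA, POLK and RFC1 no longer passed in that comparison.

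**Figure D5:**
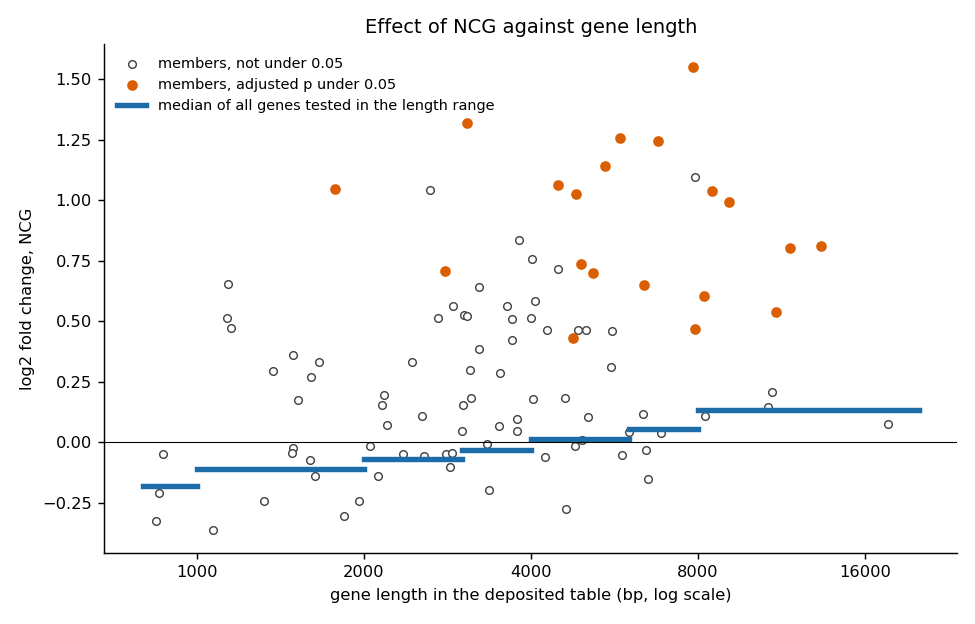
Log2 fold change of NCG (y axis) against gene length in bp (x axis, log scale) for 99 members, with the median of all genes tested in each length range as blue lines. The median of all genes goes from -0.18 in the shortest range to 0.13 in the longest, and most filled points, members with an adjusted p under 0.05, lie above 4000 bp and above the blue lines.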

How the data were processed

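Endometrial RNA of 12 libraries was grouped by title codes and replicate numbers, 3 libraries in each of 4 groups. Per the submitters' processing notes, the tools were fastp 0.22.0, HISAT2 2.1.0 and HTSeq 0.9.1 with the build Sscrofa11.1. The authors deposited 1 table of raw counts per gene and of FPKM made from counts, gene length and library total. The paper describes strand-specific poly(A) libraries. The counting strand is not given in the sources used here. Coordinates are on Sscrofa11.1. All 101 members matched RefSeq by identifier, symbol, start and end.

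Counts were analysed in R 4.3.3 with edgeR 4.0.16. The 15351 genes that passed filterByExpr were kept. After TMM scaling, the 12 libraries were fitted together by edgeR's quasi-likelihood method with a coefficient for each group (8 residual degrees of freedom), and comparisons were contrasts of these coefficients. P-values were adjusted by Benjamini-Hochberg over all tested genes. SE, the standard error, was derived from the test, as the absolute log2 fold change divided by the square root of its F statistic. "Rose" and "fell" mean an adjusted p under 0.05, and differentially expressed adds an absolute log2 fold change above 1, the paper's thresholds. FPKM was used only for levels between genes. DESeq2 1.42.0 and other settings are given in the closing section. The method was tested on simulated data.

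The members and lists were chosen with earlier results of these data known. Named genes were BRCA1, the MCM genes, members differentially expressed for NCG or for H + N against L − N, and the highest and lowest of each role for NCG. Some genes are not reported here. ATM, USP1, BRCA2, FANCI, RFC1, POLK, RMI1, POLE4, APITD1, XRCC2, PCNA, RAD54L, POLH, RFC4, ATRIP, CHEK2 and ORC4 were named after their values were seen. Over 18 pairs of equal replicate number, correlations of deviations were -0.322 to 0.283 and 3 exceeded 0.1. With 3 libraries per group this check cannot exclude a batch shared by equal numbers. The main fit did not pair the libraries.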

Additional observations from a re-analysis of the deposited data

How the results depend on the processing

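The number of differentially expressed members was counted again under RLE scaling, no filter on low counts, DESeq2, the 2 groups alone, no fold threshold, replicate number as a block, a gene length offset chosen after seeing the data, and without each library. Without the fold threshold the counts were 20 for NCG, 17 for H + N against L − N, 20 for L + N against L − N and 2 for H − N against L − N. DESeq2 gave 11, 15, 17 and 1 for these comparisons. Over the whole table, 2014, 2643, 2687 and 2079 genes then passed without the fold threshold, in either direction. The main fit passed 1116, 1223, 1474 and 809. Fitting only the 2 groups gave 2 for H + N against L − N, 8 for L + N against L − N and 0 for H − N against L − N. Genes of the whole table that passed were then 111, 1391 and 3. The gene length offset gave 8 for L + N against L − N, where 1424 genes of the whole table passed. With the replicate block the counts were 6 for H + N against L − N and 0 for H − N against L − N, and for NCG 9 as without it. Genes of the whole table that passed were then 730, 380 and 854. Leaving out single libraries gave 4 to 12 for NCG, 0 to 13 for H + N against L − N, 4 to 16 for L + N against L − N, 0 to 1 for H − N against L − N, and 0 for the other comparisons. For NCG the low came without L + N 2 or H − N 1, for H + N against L − N without L − N 3 or H + N 1, and for L + N against L − N without L − N 3, and these 3 were highest without L − N 2. Without L − N 2, 942, 491 and 861 genes of the whole table passed in these 3 comparisons. For H − N against L − N the count was 1 without L − N 1 and 0 without any other library. The median of members in H + N against L − N was 0.26 without H + N 3. The cause of these differences was not tested. No named gene that passed changed sign. DESeq2 and RLE scaling kept all 37 calls of named members for NCG and H + N against L − N, and leaving out L − N 3 lost 24. The effect of depth was not tested.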
